A study of Homo sapiens with 28 samples.

Results

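SKM1 is a myelomonocytic cell line established from acute myeloid leukaemia (AML) that followed a myelodysplastic syndrome. Vehicle-grown SKM1 cells were set against 6 other established AML lines, GDM1, MOLM13, THP1, SKNO1, NOMO1 and SHI1, to describe which genes set SKM1 apart before any drug was given. The comparison used the 14 DMSO arrays of a series of 28: the 2 SKM1 arrays, and the 12 arrays of the other lines averaged by line. A gene was named as outside the range when both SKM1 arrays lay above, or both below, all 12 other arrays and the limma fit called it in the same direction, and 1571 of 11676 measured genes did so (13.5%).

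Every line was grown for 96 hours in 0.1% DMSO, or in parallel with 1 µM GSK3484862, which blocks DNMT1, the enzyme that copies DNA methylation after replication, and each of the 14 groups held biological duplicates. The second set of arrays, 2 of SKM1 and 12 of the other lines under GSK3484862, took no part in choosing genes and is used below as a separate look at the same line difference. Each line is 1 culture model of 1 leukaemia, so a trait of SKM1 cannot be told apart from a trait of that one tumour or culture. MOLM13, THP1, NOMO1 and SHI1 are known to carry rearrangements of KMT2A, and SKNO1 carries the RUNX1-RUNX1T1 fusion.

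AML lines keep much of the programme of the blood progenitor from which they arose. The transcription factors PU.1 and C/EBPα open myeloid genes, granule proteases mark promyelocytes, and CD14 and lysozyme mark monocytes. Lines also differ where one of them lost or gained a stretch of chromosome, or silenced a gene by methylation of its promoter, and expression arrays alone do not separate these.

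Values are log2 probe set signals between 2.13, a floor that all arrays shared, and 16.81. Array medians ran from 8.33 to 8.51, and the number of arrays limits the precision. The SKM1 duplicates correlated at r = 0.991 over the genes of both arrays (genes are no replicates), with an SD per array of 0.29, against 0.161 to 0.233 in the other lines. Differences are SKM1 minus the mean of the 6 other line means, with the standard error of the fit. Where a group lay near the floor, the size of its difference was limited by the floor. Across genes SKM1 was nearest to SHI1 (r = 0.877) and THP1 (r = 0.876) and farthest from GDM1 (r = 0.794), with 11676 genes measured in the same libraries behind each value.

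The label of a myeloid leukaemia line was checked against marker genes. SPI1, which encodes PU.1, had signals of 9.88 and 9.71 in the SKM1 arrays, against 8.85 to 10.20 (median 9.54) in the other lines. MPO, the myeloperoxidase of azurophil granules, stood at 15.57 and 15.38 in SKM1, against 6.84 to 15.49 (median 12.66) elsewhere. LYZ, lysozyme, was at 15.11 and 14.04 in SKM1, against 9.07 to 15.32 (median 13.50). All 3 lay high in SKM1, whereas CD14, the monocyte lipopolysaccharide co-receptor, lay at the floor of 2.13 in both SKM1 arrays, against up to 9.03 in the others. Of 22 neutrophil granule and chemotaxis genes measured, 16 lay above the median signal of 8.70 in both SKM1 arrays, as did 14 of 30 monocyte markers, 3 of 13 lymphocyte markers and 5 of 14 epithelial and mesenchymal genes.

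At an adjusted p of 0.05 the limma fit called 4057 genes higher in SKM1 (34.7% of those tested) and 3651 lower (31.3%), with a median difference over all genes of 0.01. Its error is the spread between duplicates, pooled over the 7 lines for each gene, so its p-values concern these 7 lines. SKM1 duplicates spread most (SD 0.29). Where the other lines sat at the floor with little spread, the pooled standard error can understate the spread of SKM1, and its p-values can be too small. Both SKM1 arrays lay outside the range of the other lines in the called direction for 796 higher genes (6.82%) and 775 lower genes (6.64%). The median gap, the distance from the nearer SKM1 array to the nearest other array, was 0.27 for the higher and 0.25 for the lower genes, and 116 higher and 60 lower genes had a gap of at least 1. After quantile normalization the split was 765 higher to 1255 lower, so the balance of the 2 directions rests on the scaling. Judged on replicate 2 alone, without SKM1 replicate 1, 1210 genes lay above the range. With each line in turn against the rest, the count of higher genes was smallest in SKM1 (796, against 917 to 1630), and lower genes numbered 775 in SKM1, against 624 in SHI1 and 739 to 1529 in the remaining lines.

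When the 7 line means were the units, so that the spread among the 6 other lines set the error, limma called 24 genes higher (0.206%) and 9 lower (0.0771%). In the GSK3484862 arrays it called 13 higher (0.111%) and 4 lower (0.0343%). In DMSO, without adjustment, 208 higher and 245 lower genes had a p under 0.05 in that fit. This second test assumes that SKM1 varies as the other lines do, and it depends on which lines stand for the rest: its count of higher genes was 12 without MOLM13, 37 without NOMO1, 42 without GDM1 and 79 without THP1, and its count of lower genes was 4 without MOLM13.

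Most genes of the widest gaps lay near the floor either in SKM1 or in most of the other lines. They are ordered below by what their products do, first the 20 higher and then the 15 lower ones. At the border of the rule, ZNF782 lay just outside the range with SKM1 signals of 4.97 and 4.82, against 4.97 to 6.64 in the other lines. ACKR3 lay just within it, at the floor in both SKM1 arrays, against 2.13 to 7.04.

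Several of the 20 higher genes encode proteins of the cytoskeleton and of small GTPase signalling. PLS3, an actin-bundling plastin, had signals of 12.85 and 13.14 in SKM1, against 2.13 to 7.28 (median 2.13) in the other lines, a difference of 10.14 ± 0.29 (SE; limma adjusted p = 1.73e-09). TIAM1, a guanine nucleotide exchange factor for RAC, had 8.97 and 9.34 in SKM1, against 2.13 to 3.67 elsewhere (6.78 ± 0.08). DPYSL3, a cytoskeletal protein of the collapsin response mediator family, had 9.54 and 8.43 in SKM1, against 2.13 to 3.89 (6.60 ± 0.22). In these 3 genes both SKM1 arrays were clearly expressed while most of the other arrays sat at the floor. DMD, which encodes dystrophin, had 7.91 and 6.35 in SKM1, against at most 3.07 elsewhere (4.88 ± 0.29). TBC1D30, a RAB GTPase-activating protein, had 7.16 and 8.34 in SKM1, against at most 3.18 (5.45 ± 0.23). The SKM1 duplicates of both genes differed by more than 1 unit, yet the nearer one stayed far above every other line.

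A second group encodes proteins of the cell surface or enzymes that modify its molecules. ILDR2, an immunoglobulin-like membrane protein, had 9.40 and 8.76 in SKM1, against 2.15 to 2.53 in the other lines, the widest gap among the higher genes (6.24; difference 6.90 ± 0.14, limma adjusted p = 1.56e-10). HS6ST2, which sulphates heparan chains, had 11.97 and 11.29 in SKM1, against 2.13 to 7.24 (8.65 ± 0.13). LPAR3, a receptor for lysophosphatidic acid, had 9.15 and 9.40 in SKM1, against 2.13 to 5.80 (6.51 ± 0.46). The highest line after SKM1 was THP1 for all 3 of these genes. GABRB2, a beta subunit of the GABA-A receptor, was higher by 6.03 ± 0.21, and BACE2, an aspartyl protease of the beta-secretase family, by 6.03 ± 0.07. CXADR, the coxsackievirus and adenovirus receptor, was higher by 4.08 ± 0.21, and the orphan receptor gene GPR176 by 4.73 ± 0.12.

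The remaining higher genes are intracellular or non-coding. KHDRBS3, an RNA-binding regulator of splicing, had 11.30 and 11.19 in SKM1, against 3.06 to 6.46 (median 4.26) in the other lines (6.81 ± 0.32). BEX2, a small X-linked signalling protein, had 8.83 and 8.33 in SKM1, against 2.13 to 2.62 (6.40 ± 0.13), and LDOC1, an X-linked gene derived from a retrotransposon, 8.22 and 8.80, against 2.13 to 3.85 (6.12 ± 0.13). CAMK4, a calcium and calmodulin-dependent kinase, had 7.67 and 7.10 in SKM1, against 2.13 to 3.69 (5.03 ± 0.31). As for all 20 higher genes, the lack of overlap with the other lines in these 4 follows from the naming rule. The others were TPD52L1 (5.52 ± 0.18), RBP7, a cellular retinol-binding protein (4.61 ± 0.11), and the divergent transcripts YPEL3-DT (5.39 ± 0.07) and ZNF582-DT (4.16 ± 0.11). Of the 20 higher genes, 13 had at least 1 other array at the floor, and 12 were called by limma with line means as units.

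**Figure D1:**
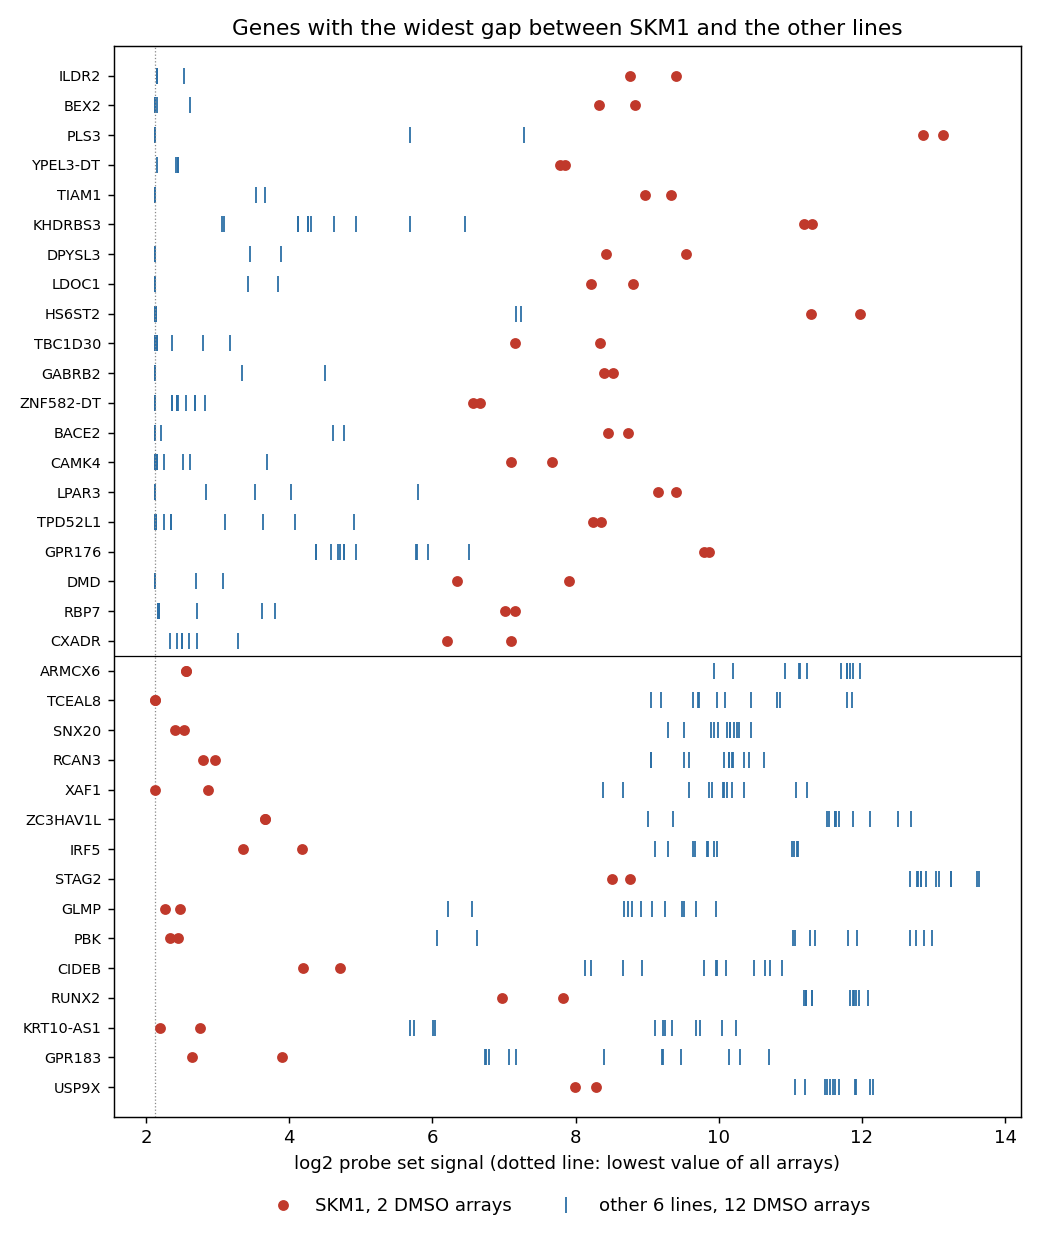
Log2 probe set signal (x axis) of the 20 higher (top) and 15 lower (bottom) genes with the widest gap. Red points are the 2 SKM1 DMSO arrays and blue ticks the 12 DMSO arrays of the other 6 lines. By the naming rule no red point lies among the ticks of its gene. The gaps are at least 2.93 among the higher and 2.79 among the lower genes.

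Among the 15 lower genes were regulators of chromatin and transcription. STAG2, the X-linked cohesin subunit that is recurrently mutated in myeloid neoplasms, had signals of 8.51 and 8.76 in SKM1, against 12.67 to 13.64 (median 12.97) in the other lines. The difference was -4.42 ± 0.07 (limma adjusted p = 2.63e-11), and all 3 STAG2 probe sets lay outside the range on the same side. Its paralogue STAG1 had 10.98 and 11.16 in SKM1, against 9.73 to 10.87 (0.72 ± 0.10, adjusted p = 0.000113). By the rule that named both genes, SKM1 had the lowest STAG2 and the highest STAG1 signals of the DMSO arrays. STAG2 stayed well above the floor. USP9X, an X-linked deubiquitinase, had 7.99 and 8.28 in SKM1, against 11.07 to 12.15 (-3.52 ± 0.08), in all 4 of its probe sets. RUNX2, a RUNX transcription factor, had 6.97 and 7.83, against 11.19 to 12.09 (-4.18 ± 0.16), although 1 of its 3 probe sets lay outside the range. PBK, a mitotic kinase, had 2.34 and 2.45, against 6.06 to 12.98 (-8.64 ± 0.12).

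Genes of innate immunity and of leukocyte trafficking formed another group. XAF1, an interferon-inducible partner of the apoptosis inhibitor XIAP, had 2.87 and 2.13 in SKM1, against 8.38 to 11.23 (median 10.06) in the other lines (-7.46 ± 0.17, limma adjusted p = 3.25e-10). IRF5, a transcription factor of Toll-like receptor signalling, had 4.18 and 3.35, against 9.11 to 11.11 (-6.36 ± 0.16), in 1 of its 3 probe sets, while the other two lay lower but not outside the range. SNX20, a sorting nexin that binds the selectin ligand PSGL-1, had 2.53 and 2.41, against 9.29 to 10.45 (-7.55 ± 0.08). It lay outside the range in 2 of 3 probe sets. These 3 genes were expressed in every other line and much lower in SKM1, with XAF1 at the floor in 1 SKM1 array. GPR183, an oxysterol receptor that guides leukocyte migration, had 3.90 and 2.64, against 6.73 to 10.70 (-5.23 ± 0.40). ZC3HAV1L, a relative of the zinc-finger antiviral protein, had 3.66 in both SKM1 arrays, against 9.01 to 12.68 (-7.77 ± 0.09).

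The X-linked genes ARMCX6 and TCEAL8 had the widest gaps of all 35 genes, 7.38 and 6.92. ARMCX6, an armadillo-repeat protein, had 2.56 in both SKM1 arrays, against 9.94 to 11.98 (-8.74 ± 0.09). TCEAL8, of the elongation factor A-like family, lay at the floor in both, against 9.05 to 11.86 (-8.13 ± 0.10). RCAN3, a regulator of calcineurin, had 2.96 and 2.80 in SKM1, against 9.05 to 10.63 (-7.07 ± 0.08). All 3 genes were thus well expressed in all 6 other lines and nearly undetected in SKM1. GLMP, a lysosomal membrane glycoprotein, differed by -6.37 ± 0.11, CIDEB, a lipid droplet protein, by -5.25 ± 0.13, and the antisense transcript KRT10-AS1 by -5.87 ± 0.12. Of the 15 lower genes 9 were called with line means as units, and 4 of the 15 and 5 of the 20 higher ones are X-linked.

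The same contrast in the GSK3484862 arrays called 4305 genes higher (36.9%) and 3618 lower (31.0%), of which 858 (7.35%) and 738 (6.32%) lay outside the range. That split was 725 higher to 1500 lower after quantile normalization and 717 to 1132 after centring each array on its median. Of the genes outside the range, 500 higher genes were shared by both sets of arrays, which was 62.8% of the DMSO list and 58.3% of the GSK3484862 list. For the lower genes 504 were shared, 65.0% and 68.3% of the lists, and 1 gene lay on opposite sides. Of the genes with the widest gap, 16 of 20 higher and 15 of 15 lower ones were outside on the same side under GSK3484862. PLS3 had 12.67 and 12.97 in treated SKM1, against at most 6.33 in the other treated lines, and STAG2 had 8.58 and 8.72, against 12.78 to 13.59. The 4 higher genes that were no longer outside were TBC1D30, ZNF582-DT, TPD52L1 and DMD.

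Whether the difference itself moved with the inhibitor was tested with an interaction term over all 28 arrays, which limma called higher for 846 genes (7.25%) and lower for 564 (4.83%). Among the genes with the widest gap, the difference moved down for 8 of the 20 higher genes and up for 6 of the 15 lower genes. These genes were chosen for their DMSO gap, and the interaction uses the same DMSO arrays, so the choice favours this direction and the counts are a description. Of the 14, ZNF582-DT and PBK were not called changed in SKM1 itself (0.37 ± 0.19 and 0.24 ± 0.14). TPD52L1 had 4.93 and 3.49 in treated SKM1, against 8.35 and 8.24 in DMSO, and its difference moved by -4.13 (adjusted p = 2.13e-06). GLMP had 6.55 and 5.94 in treated SKM1, against 2.26 and 2.48 in DMSO, and its difference moved by 3.56 (adjusted p = 3.83e-10). SNX20 had 5.39 and 6.53 in treated SKM1, against 2.53 and 2.41 in DMSO, and moved by 3.28 (adjusted p = 9.64e-08). These 2 lower genes rose in treated SKM1 but still lay below every other treated array.

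**Figure D2:**
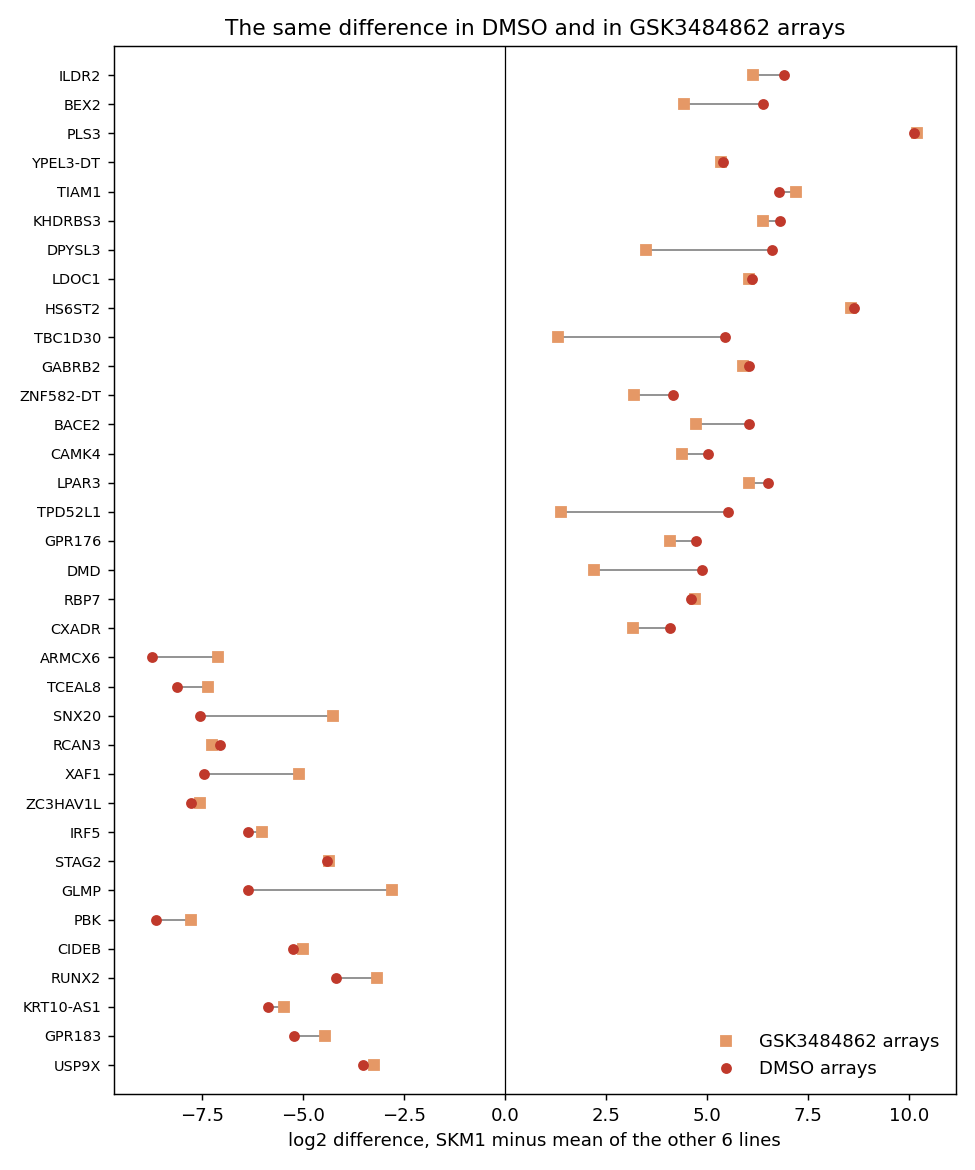
Difference of SKM1 from the mean of the other 6 lines on the log2 scale (x axis) for the same 35 genes, in GSK3484862 arrays (squares) and in DMSO arrays (circles), joined by a line for each gene. TBC1D30 and TPD52L1 lose most of their difference under GSK3484862, while PLS3, HS6ST2 and STAG2 keep theirs.

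Promoters are shown for the 3 genes that rose most in SKM1 under the inhibitor among the 12 of the 15 lower genes with a promoter in the reference table, because DNMT1 copies methylation at CpG sites. Each runs from 250 bases before to 50 bases after the gene's start in RefSeq on GRCh38.p14, 5′ to 3′ on the gene's strand, with CpG dinucleotides in capitals. No methylation was measured here.
GLMP, chr1:156295630-156295929, minus strand: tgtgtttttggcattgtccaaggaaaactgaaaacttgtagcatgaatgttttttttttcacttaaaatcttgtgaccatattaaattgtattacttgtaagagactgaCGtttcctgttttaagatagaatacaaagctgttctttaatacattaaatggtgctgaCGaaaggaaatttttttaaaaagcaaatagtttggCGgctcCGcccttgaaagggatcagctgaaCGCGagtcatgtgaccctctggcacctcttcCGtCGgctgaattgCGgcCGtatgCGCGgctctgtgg
XAF1, chr17:6755796-6756095, plus strand: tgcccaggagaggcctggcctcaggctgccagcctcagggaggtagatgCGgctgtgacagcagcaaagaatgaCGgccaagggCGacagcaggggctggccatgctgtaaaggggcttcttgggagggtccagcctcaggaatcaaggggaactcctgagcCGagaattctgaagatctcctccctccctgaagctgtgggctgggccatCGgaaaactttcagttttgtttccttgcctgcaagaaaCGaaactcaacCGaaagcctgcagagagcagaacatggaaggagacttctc
ARMCX6, chrX:101617951-101618250, minus strand: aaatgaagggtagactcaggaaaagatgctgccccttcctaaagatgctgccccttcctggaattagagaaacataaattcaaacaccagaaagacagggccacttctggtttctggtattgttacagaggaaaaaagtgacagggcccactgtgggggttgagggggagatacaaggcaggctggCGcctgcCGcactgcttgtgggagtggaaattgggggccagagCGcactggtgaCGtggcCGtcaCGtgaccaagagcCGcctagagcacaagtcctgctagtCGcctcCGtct

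The GLMP window held 12 CpG dinucleotides, the XAF1 window 7 and the ARMCX6 window 9, against a median of 14 over 35116 promoter windows of the same length. Windows with at least as many CpG dinucleotides made up 53.1%, 63.2% and 58.4% of all windows for the 3 genes in that order. In SKM1 the signal under GSK3484862 minus DMSO was 3.87 ± 0.16 for GLMP (limma adjusted p = 1.7e-11), 2.80 ± 0.19 for XAF1 (1.45e-08) and 1.54 ± 0.13 for ARMCX6 (2.87e-07). These 3 genes were chosen for this rise and for their DMSO gap. The choice thus favours a rise and small p-values, and the values are a description. SNX20, which rose by 3.49 ± 0.22, was not among the 12 genes in the table.

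The genes outside the range were unevenly spread over the chromosomes. On chromosome 12, 223 of 634 measured genes lay below all other lines (35.2%), and on chromosome 14, 94 of 368 did (25.5%), against 6.64% of all genes. The median difference on chromosome 12 was -0.73 in SKM1 replicate 1 and -0.62 in replicate 2 (both together -0.68), and -0.61 under GSK3484862. On chromosome 14 it was -0.60 and -0.36 (both together -0.50), and -0.33 under GSK3484862. The medians of the other lines, each set against the rest, lay between -0.04 and 0.24 on chromosome 12 and between -0.02 and 0.24 on chromosome 14; SKM1 is part of the rest in each. Genes above all other lines made up 13.3% of chromosome 1 (155 of 1166), 12.2% of chromosome 4 and 11.5% of chromosome 18, against 6.82% of all genes, and on the X chromosome they were 49 of 376.

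**Figure D3:**
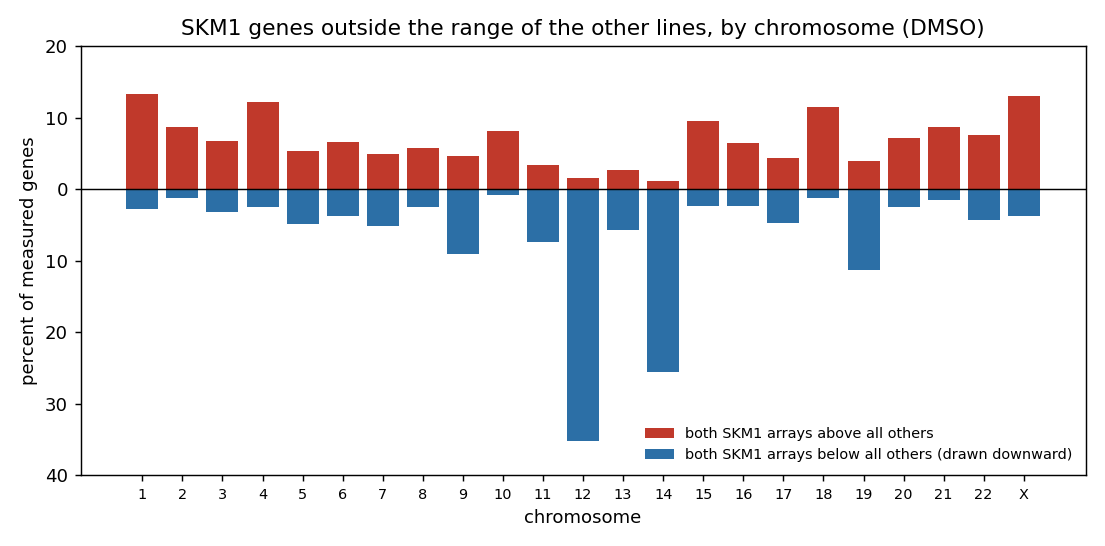
Percent of measured genes on each chromosome for which both SKM1 DMSO arrays lay above (red, upward) or below (blue, downward) all 12 other DMSO arrays with a limma call in that direction. The blue bars of chromosomes 12 (35.2%) and 14 (25.5%) are the longest of the plot.

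Measured genes were then taken in their order along each chromosome in blocks of 25 to 28, and boundaries were drawn after the block medians had been seen, so the stretches below are descriptions with no test. All 25 blocks of chromosome 12 had a median below 0, from -1.36 to -0.21, in DMSO and in GSK3484862 arrays alike. From the block that starts at ETFRF1 to the end of chromosome 12, 504 genes had a median of -0.74. Of these, 42.3% lay below all other lines. The 130 genes before that block had a median of -0.32, with 7.69% below all other lines, against 6.64% of all genes. THP1 was lower over those 130 genes, with a median of -0.58 against the rest. All 14 blocks of chromosome 14 were negative as well, from -0.64 to -0.37. On chromosome 1 the level changed at the block of PHGDH: from there on 525 genes had a median of 0.53, against -0.02 for the 641 genes before it. THP1 had a like shift over the same stretch, with a median of 0.55 against the rest.

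Chromosome 19 held a lower and a higher stretch. The 300 genes from CEACAM21 on had a median of -0.51, with 23.7% below all other lines, and the 150 genes from LINC00662 to DMAC2 before them a median of 0.32, with 12.7% above. On chromosome 9, 104 genes from ISCA1 to SLC31A1 had a median of -0.56, and 28.8% lay below all other lines. These medians had the same sign after quantile normalization, where chromosome 12 from ETFRF1 on was at -0.84, chromosome 1 from PHGDH on at 0.51 and the chromosome 19 stretch from CEACAM21 on at -0.75. Copy number was not measured in the data used here, and its part in these shifts was not tested.

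**Figure D4:**
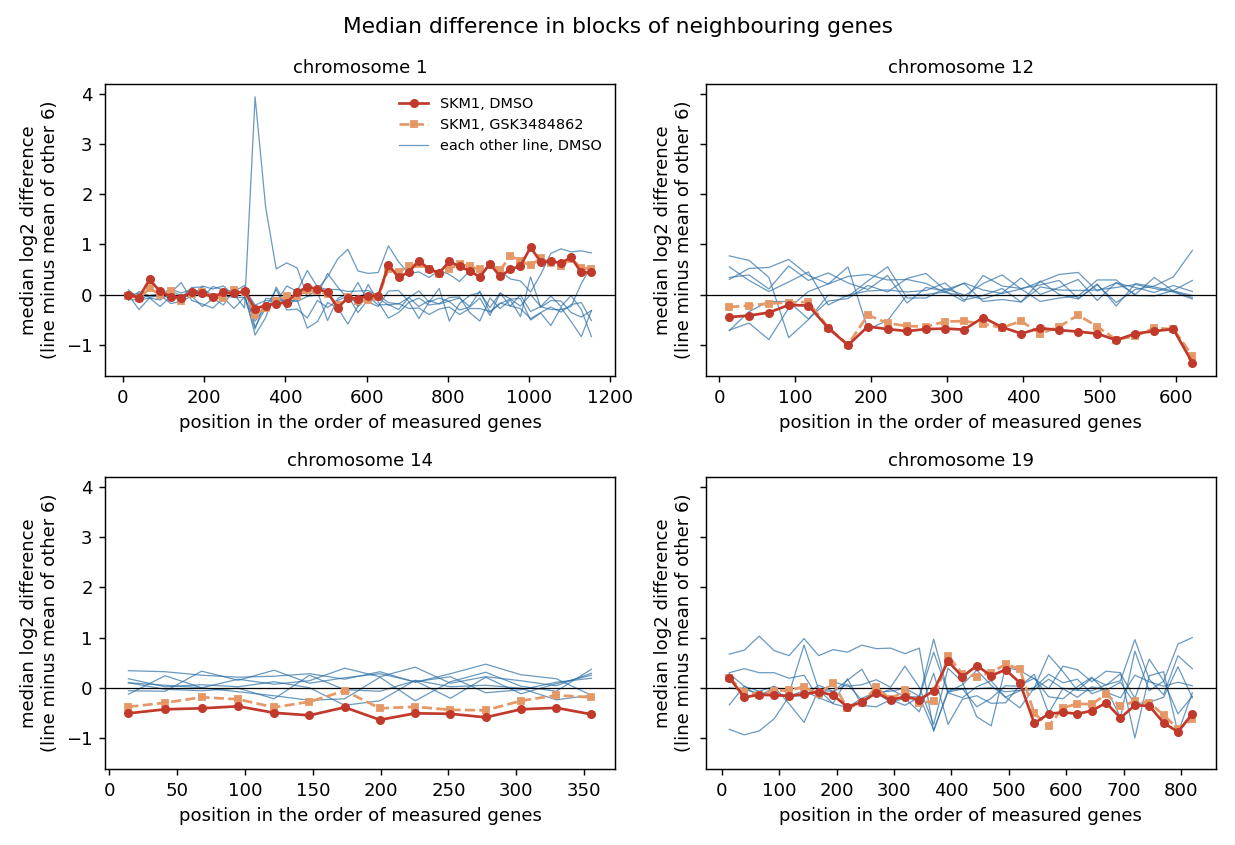
Median log2 difference (y axis) in blocks of neighbouring measured genes, placed by their order along chromosomes 1, 12, 14 and 19 (x axis). Red circles are SKM1 minus the other lines in DMSO, orange squares the same under GSK3484862, and thin blue lines each other line against the rest in DMSO. SKM1 runs below 0 along all of chromosomes 12 and 14 and above 0 along the later part of chromosome 1. Over the first blocks of chromosome 12 THP1 lies lower than SKM1.

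Neighbouring genes that were all outside the range on the same side formed 20 runs of at least 4 genes, 15 of them lower and 5 higher, and 10 lay on chromosome 12. The longest held 11 genes from PGAM5 to ZNF268 on chromosome 12, among them the mitotic checkpoint ubiquitin ligase gene CHFR and a series of zinc-finger genes. Their median difference was -1.74, and 10 of the 11 were also outside on the same side under GSK3484862. On chromosome 1 the higher runs were DEDD to PPOX (4 genes, median 0.89), IER5 to NPL (1.46) and RASSF5 to MAPKAPK2 (0.97).

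Over the 32 lists, 723 genes were measured, 59 were higher and 37 lower and outside the range, and 10 of the 37 lower genes lie on chromosome 12 and 3 on chromosome 14, where 47 of the 723 list genes lie on chromosome 12. The share of lower genes on chromosome 12 was thus 27.0% in the lists, against 28.8% of all lower genes outside the range, and 9 of the 32 lists held such a gene on chromosome 12 or 14. The lists taken up below are given by counts and median, beside 34.7% of all genes called higher, 31.3% called lower and a median of 0.01 over all genes.

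Of 22 granule and chemotaxis genes of neutrophils and their precursors, 14 were called higher in SKM1 and 5 lower, 3 and 0 outside the range, with a median difference of 2.17. The mean level of the list was 10.45 and 10.79 in the SKM1 arrays, against 6.29 to 11.08 (median 9.02) in the other arrays, so SKM1 lay within their range. MMP9, a matrix metalloproteinase of neutrophil granules, had 10.31 and 10.50 in SKM1, against 4.08 to 8.95 (median 7.09) elsewhere (3.60 ± 0.19, limma adjusted p = 1.32e-07). CAMP, the antimicrobial peptide cathelicidin, had 8.34 and 8.36, against 3.90 to 7.61 (2.24 ± 0.36). MS4A3, a marker of granulocyte and monocyte progenitors, had 14.2 and 14.15, against 2.13 to 14.03 (4.68 ± 0.26). MMP9 stood clear of the other lines, whereas the MS4A3 signals lay 0.12 above the highest other array. The granule enzyme genes MPO (3.72), ELANE (3.20) and PRTN3 (4.2), chosen here after their values were seen, were called higher but overlapped with other lines. CEACAM6 was at -6.71.

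Among other lineage markers, CLC, the Charcot-Leyden crystal protein of eosinophils and basophils, had 15.17 and 15.15 in SKM1, against 2.39 to 13.39 (median 5.22) in the other lines (8.43 ± 0.25, limma adjusted p = 2.06e-09). PRG2, the major basic protein of eosinophil granules, had 14.58 and 14.72, against 2.13 to 14.23 (4.76 ± 0.37). The list of 12 such markers was otherwise mixed, with 4 called higher and 6 lower. NCAM1, the adhesion molecule CD56, had 10.47 and 10.91, against 2.30 to 8.97 (6.47 ± 0.18), in all 4 probe sets. CD3D, a T-cell receptor chain, had 3.57 and 4.00, against 4.15 to 14.65 (-4.16 ± 0.33). TLR4, the lipopolysaccharide receptor of monocytes, had 10.64 and 9.97, against 3.61 to 9.37 (2.81 ± 0.18), and the blood group gene XK 10.71 and 10.88, against 2.13 to 9.80 (3.86 ± 0.06). CLC and NCAM1 thus stood more than 1 unit above the highest other array, and PRG2, TLR4 and XK by less. Of 13 lymphocyte markers 4 were called higher and 8 lower (median -1.35). The counts were 15 and 9 of 30 monocyte markers (median 0.5) and 5 and 2 of 7 erythroid markers (median 1.59).

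Surface receptors moved in both directions. CD93, a surface receptor of myeloid and endothelial cells, had 2.18 and 2.13 in SKM1, against 2.33 to 12.95 (median 12.05) in the other lines (-8.6 ± 0.19). IL2RG, the common gamma chain of interleukin receptors, had 3.17 and 3.52, against 3.88 to 12.76 (-5.88 ± 0.19), and IL3RA, the interleukin-3 receptor, 5.98 and 5.77, against 6.04 to 9.12 (-1.69 ± 0.10). IGF1R, the insulin-like growth factor receptor, had 10.62 and 10.77, against 3.36 to 9.92 (3.75 ± 0.11). SKM1 lay at the lower edge for CD93, IL2RG and IL3RA with gaps of 0.15, 0.35 and 0.06, since SKNO1 or THP1 also had low signals. For CD93 1 of 2 probe sets lay outside the range. Of 32 AML surface antigens 10 were called higher and 13 lower (median -0.08), and of 26 growth factor receptors 10 and 7 (median 0.19).

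Of the stem-cell factors, MEIS1, the cofactor of HOXA proteins in KMT2A-rearranged leukaemia, had 2.76 in both SKM1 arrays, against 2.13 to 10.87 (median 10.42) elsewhere (-5.06 ± 0.13). It was called lower but lay within the range, since THP1, which also carries a KMT2A rearrangement, was lower still (mean 2.13). HOXA9 and CD33 were not analysed here. ID1, an inhibitor of basic helix-loop-helix factors, had 10.97 and 11.52 in SKM1, against 6.86 to 10.39 (2.33 ± 0.20), and of 35 haematopoietic transcription factors 17 were called higher and 11 lower (median 0.18).

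The interferon list was split. Of 52 genes measured, 14 were called higher and 23 lower, 4 and 5 of them outside the range, with a median of -0.09. HERC5, the ISG15 ligase, had 11.27 and 11.22 in SKM1, against 2.76 to 9.99 (median 5.61) in the other lines (5.19 ± 0.07). SAMD9L, an antiviral growth suppressor, had 4.42 and 4.85, against 5.74 to 8.72 (-3.01 ± 0.14), and 1 of its 3 probe sets lay outside the range. Together with XAF1, these are the largest differences on each side among the outside genes of the list. TNF, tumour necrosis factor, had 2.55 and 2.79, against 3.37 to 10.22 (-4.2 ± 0.27).

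Antigen presentation genes also differed in both directions. TAPBPL, a tapasin-related chaperone of MHC class I, had 4.25 and 4.60 in SKM1, against 6.74 to 9.97 (-3.78 ± 0.11), and lies on chromosome 12. HLA-F, a non-classical class I gene, had 13.70 and 13.66, against 10.86 to 13.05 (1.84 ± 0.08), and probe sets of HLA genes can share sequence among paralogues. IRF1, a transcriptional activator of class I genes, had 7.94 and 7.86, against 8.49 to 9.56 (-1.07 ± 0.07). Of 20 class I genes 13 were called higher and 6 lower (median 0.41), and of 16 class II genes 9 and 5 (median 0.57). RFX5, a factor that switches on class II promoters, had 12.21 and 12.18, against 10.42 to 11.85 (1.07 ± 0.06).

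Glycolysis and hypoxia genes were higher together in SKM1: 30 of 37 were called higher and 3 lower, 9 and 1 outside the range, with a median of 0.91. P4HA2, a collagen prolyl hydroxylase subunit, had 10.08 and 10.60 in SKM1, against 2.67 to 7.86 (median 4.78) in the other lines (5.38 ± 0.19). ANKRD37, a target of the hypoxia-inducible factor, had 8.47 and 9.05, against 4.10 to 7.44 (3.19 ± 0.18), and BNIP3, a mitophagy receptor, 12.69 and 13.40, against 2.13 to 11.94 (3.88 ± 0.19). For all 3 genes SKM1 replicate 2 was the higher one. The mean level of the whole list was 11.20 and 11.68 in the SKM1 arrays, against 9.84 to 10.89 (median 10.13) in the other lines, so both SKM1 arrays lay above all others. Culture density, medium and oxygen were not used here and their part was not tested.

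Of 27 genes of the BCL2 family and death receptors, 9 were called higher and 12 lower, with none outside above the range and 2 below, and a median of -0.07. BAX, a pore-forming apoptosis protein on chromosome 19, had 10.12 and 10.62 in SKM1, against 10.74 to 12.20 (median 11.36) in the other lines (-1.0 ± 0.14, limma adjusted p = 0.000148). BAK1, a related pore-former on chromosome 6, had 8.59 in both SKM1 arrays, against 9.15 to 10.13 (median 9.68) elsewhere (-1.05 ± 0.06, adjusted p = 2.13e-07). Both pore-forming genes were named because they lay below the range, as 6.64% of all genes did. For BAX 1 of 2 probe sets lay outside the range. Under GSK3484862 neither gene lay outside, and neither was called with line means as units.

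Genes of RAS and MAPK signalling had 15 of 34 members called higher and 8 lower, 6 and 1 outside the range, with a median of 0.15. The phosphatase genes DUSP1 (8.27 and 8.39 in SKM1, against 4.34 to 7.74) and DUSP5 (9.63 and 10.08, against 6.23 to 9.17), which switch off MAP kinases, differed by 2.15 ± 0.13 and 2.27 ± 0.21. The other 4 genes above the range were SPRED1, SPRY2, ETV5 and RASSF5, named here after their values were seen. PTPN11, the SHP2 phosphatase on chromosome 12, had 12.62 and 12.56, against 13.16 to 13.92 (-0.94 ± 0.06), in all 4 probe sets.

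Of 21 cell cycle inhibitors and tumour suppressors, 11 were called higher and 5 lower (median 0.21). CDKN2A, which encodes p16 and ARF, had 12.15 and 12.40 in SKM1, against 5.10 to 10.51 (median 5.54) in the other lines (5.37 ± 0.16). MGMT, which repairs alkylated guanine, had 9.44 and 9.58, against 3.01 to 8.73 (3.48 ± 0.13). Of the other lines, SKNO1 came nearest to SKM1 for both genes.

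Of 47 S-phase genes 15 were called higher and 14 lower, 4 and 6 outside the range (median 0.01), and of 42 G2 and mitosis genes 20 were called higher and 6 lower, 4 and 1 outside (median 0.19). The S-phase median turned to -0.02 when each array was centred on its median. CCNE1, cyclin E on chromosome 19, had 11.79 and 11.74 in SKM1, against 8.6 to 10.58 (1.64 ± 0.07). On chromosome 12 POLE, a replicative polymerase, had 8.03 and 7.72, against 8.87 to 10.74 (-1.80 ± 0.11), and the primase gene PRIM1 10.46 and 10.92, against 11.24 to 12.16 (-1.13 ± 0.12). The other S-phase genes below the range were RFC5 on chromosome 12, LIG1 and POLD1 on chromosome 19 and CDC6 on chromosome 17. MYC had 13.70 and 13.78, against 12.12 to 14.04 (0.40 ± 0.08), and lay within the range.

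DNMT1, the target of the inhibitor, and its partner UHRF1 lay within the range of the other lines and were not called. DNMT1 had 13.20 and 13.26 in SKM1, against 12.86 to 13.84 (median 13.24) in the other lines (-0.06 ± 0.06, limma adjusted p = 0.411), and UHRF1, which brings DNMT1 to hemimethylated DNA, 13.34 and 13.22, against 12.33 to 13.74 (0.01 ± 0.07, adjusted p = 0.929). DNMT3A, a de novo methyltransferase, had 7.13 and 7.51, against 7.5 to 10.66 (-1.82 ± 0.10), and DNMT3B 9.16 and 8.99, against 6.66 to 13.12 (0.29 ± 0.08). Both were called but not outside the range. TET2, a 5-methylcytosine oxidase, had 9.28 and 9.05, against 9.60 to 10.95 (-1.17 ± 0.09), and TDG, a base-excision glycosylase on chromosome 12, 11.86 and 11.95, against 12.64 to 13.36 (-1.11 ± 0.06). TET2 and TDG were the 2 members of the 18-gene DNA methylation list below the range, in which 5 were called higher and 9 lower. For TET2 1 of 3 probe sets lay outside the range, and for TDG 1 of 2.

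Of 35 Polycomb and Trithorax subunits 10 were called higher and 11 lower (median -0.03). PCGF2, a RING-type subunit of Polycomb repressive complexes, had 10.16 and 10.37 in SKM1, against 3.46 to 9.23 (median 5.70) elsewhere (4.24 ± 0.12). KDM2B, a CpG-binding demethylase on chromosome 12, had 10.54 and 10.71, against 10.73 to 12.01 (-0.75 ± 0.08). EZH2, the histone H3 lysine methyltransferase, had 10.55 and 10.80, against 9.69 to 11.92 (-0.29 ± 0.07), and lay within the range. SKM1 thus stood apart for PCGF2, by a gap of 0.93, and at the edge for KDM2B, by 0.03. For PCGF2 2 of 4 probe sets lay outside the range.

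Lipid synthesis was split as well, with 10 of 25 cholesterol and fatty acid genes called higher and 4 lower (median 0.16). TM7SF2, a sterol reductase, had 5.44 and 5.61 in SKM1, against 7.54 to 9.34 (-2.94 ± 0.19), and HMGCS1, which makes the mevalonate precursor HMG-CoA, 9.11 and 9.24, against 9.67 to 11.13 (-1.24 ± 0.08). PMVK, phosphomevalonate kinase on chromosome 1, had 12.05 and 12.24, against 10.61 to 11.42 (1.07 ± 0.07). SCD, which desaturates fatty acids, had 12.76 and 12.83, against 10.91 to 12.37 (1.07 ± 0.09), and was named after its values were seen. These 4 genes are all list members outside the range, 2 above it and 2 below. For HMGCS1 1 of 2 probe sets lay outside the range. Among imprinted genes GRB10, an adaptor of growth factor receptors, had 11.02 in both SKM1 arrays, against 3.41 to 10.57 (3.25 ± 0.21), and 8 of 15 were called higher and 4 lower (median 0.46). OCLN, the tight junction protein occludin, had 10.26 and 10.52, against 7.36 to 9.90 (1.74 ± 0.10). Of the 14 epithelial and mesenchymal genes in its list, 4 were called higher and 6 lower (median -0.11).

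Genes often used as references showed how small a difference could pass. HPRT1, a purine salvage enzyme, had 13.62 and 13.65 in SKM1, against 13.12 to 13.57 in the other lines (0.29 ± 0.05, limma adjusted p = 0.000402), and PGK1, a glycolytic kinase, 15.41 and 15.46, against 15.10 to 15.32 (0.24 ± 0.05). Both are X-linked. IPO8, a nuclear import receptor on chromosome 12, had 10.16 and 10.38, against 10.75 to 11.20 (-0.76 ± 0.07). Over 14 reference genes 6 were called higher and 3 lower, with a median of 0.10, and the 11 others lay within the range.

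**Figure D5:**
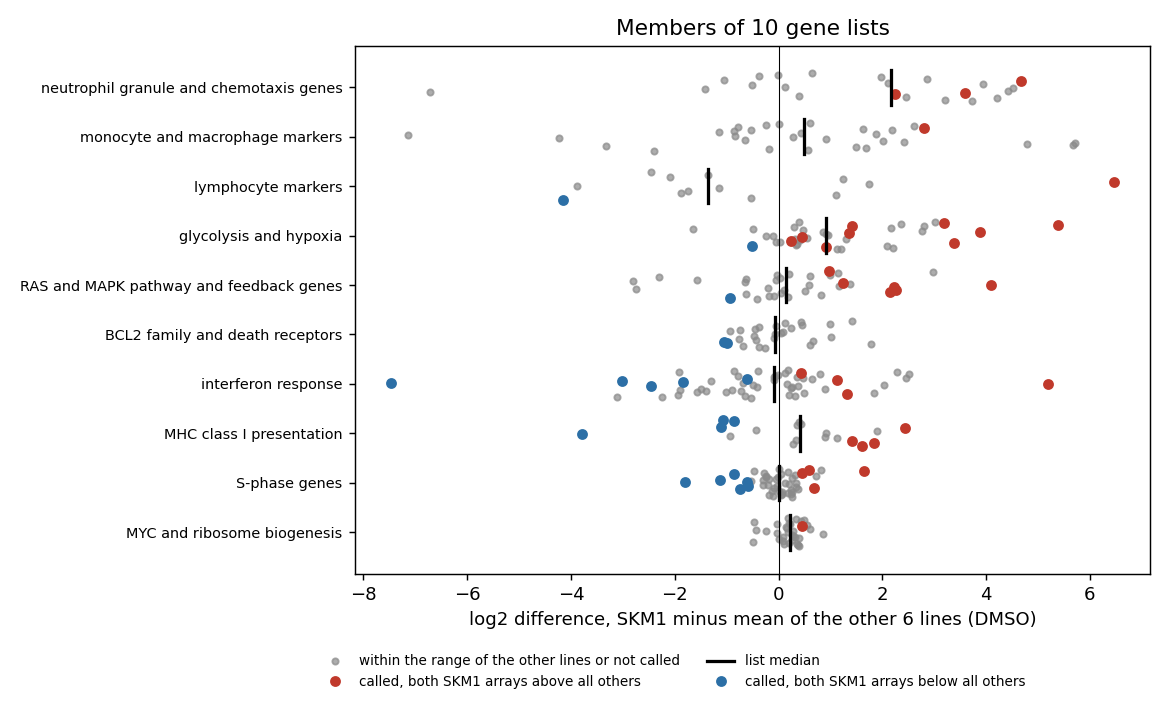
Difference of SKM1 from the mean of the other 6 lines on the log2 scale (x axis) for each measured member of 10 gene lists. Red and blue points are called genes with both SKM1 DMSO arrays above or below all others, grey points are the other members, and the black bar is the list median, which runs from -1.35 for lymphocyte markers to 2.17 for neutrophil granule genes.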

How the data were processed

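The series holds 28 Affymetrix U133 Plus 2.0 arrays (7 AML lines, 2 treatments, duplicates). The authors deposited 1 table of log2 signals for 27306 probe sets. How background and arrays were corrected is not given in the sources used here. The submitters' processing notes name limma only. The log2 values were used as deposited. One probe set represented each gene (highest mean over all 28 arrays), which gave 11676 genes, named from the platform annotation (22580 probe sets with 1 symbol, 1098 with several, 3628 with none; symbols of 22567 were checked by gene identifier). Gene order came from the RefSeq gene table.

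limma 3.58.1 in R 4.3.3 was fitted to the 14 DMSO arrays (7 groups, 7 residual and 2.33 prior degrees of freedom), with SKM1 set against the mean of the 6 other line means, Benjamini-Hochberg adjusted over all genes. The same contrast was fitted to the GSK3484862 arrays and to line means, and an interaction to all 28 arrays. Genes were named by the gap rule (20 higher, 15 lower), up to 3 members outside the range in each of 32 lists, and 7 genes always given. On simulated data the fit recovered 29 and 33 of 50 genes changed by 0.5 and -0.5, 42 and 43 of 50 changed by 1 and -1, and called 5 of 11476 unchanged genes. The simulated noise was normal, with 1 spread per gene shared by all lines, no floor and no other differences between lines. These counts thus check the code and do not measure the error rate in the real arrays. The members, lists and tests were chosen with earlier results of these data known. Replicate numbers did not pair the samples (r of deviations from -0.156 to 0.239 over 21 pairs of lines, 2 of them over 0.1).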

Additional observations from a re-analysis of the deposited data

Results flagged for a closer look

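For 30 of the 102 named genes the difference between SKM1 and the other 6 lines itself changed between DMSO and GSK3484862 by the limma interaction test (adjusted p under 0.05); each value is the difference under GSK3484862 minus the difference under DMSO, on the log2 scale. The interaction was called higher for 7.25% and lower for 4.83% of all genes, so these named genes, chosen for large DMSO differences, are given as values only.

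Among the higher genes with the widest gap the change was -1.96 for BEX2, -3.10 for DPYSL3, -4.12 for TBC1D30, -0.96 for ZNF582-DT, -1.30 for BACE2, -4.13 for TPD52L1, -0.65 for GPR176 and -2.69 for DMD. Of these, ZNF582-DT did not fall in SKM1 itself (0.37 ± 0.19, adjusted p = 0.157), while the highest other array reached 6.96 under GSK3484862, against 2.83 in DMSO. Among the lower genes it was 1.62 for ARMCX6, 3.28 for SNX20, 2.36 for XAF1, 3.56 for GLMP, 0.86 for PBK and 1.02 for RUNX2. PBK changed little in SKM1 itself (0.24 ± 0.14, adjusted p = 0.225).

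The receptor genes CD93 and IL2RG had the largest changes of all named genes, 6.78 and 5.75. CD93 had 10.01 and 9.42 in treated SKM1, against 2.18 and 2.13 in DMSO, and IL2RG 9.14 and 9.85, against 3.17 and 3.52, and both then lay within the range of the other treated lines. CD3D changed by 2.17 and TNF by 2.35. Among granulocyte genes MMP9 changed by 1.75 and CAMP by 2.14, which took both further from the other lines, and MS4A3 by -1.34, CLC by -1.69 and PRG2 by -1.85. CLC and PRG2 did not fall in SKM1 itself. CLC had 15.56 and 15.27 in treated SKM1, against 15.17 and 15.15 in DMSO, and PRG2 15.4 and 15.14, against 14.58 and 14.72. MS4A3 had 13.85 and 14.11, against 14.2 and 14.15. The median of the other arrays rose from 10.5 to 11.88 for MS4A3, 5.22 to 8.77 for CLC and 12.31 to 14.45 for PRG2. Smaller changes were found for BAK1 (0.47), LDHA (-0.25), DNMT3A (0.79), DNMT3B (0.46), UHRF1 (0.34), EZH2 (0.42) and MYC (-0.37).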

How the results depend on the processing

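All 35 genes with the widest gap kept their direction and their limma call in every refit in which they were measured, other than that with line means as units, where 14 lost it. These genes were chosen from the same arrays for gaps of at least 2.93 (higher) and 2.79 (lower). Refits of those arrays could hardly reverse them, so this is a description and no separate support. Altogether 79 of the 102 named genes lost the call with line means, 21 kept it, and DNMT1 and UHRF1 were called in neither. A filter on low values, keeping genes with a line mean above 9.58, retained few of the higher genes, since most sit near the floor elsewhere. Counts outside the range fall as lines are added, by construction.

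With line means as units, the called genes, and those outside the range, numbered 24 higher and 9 lower in DMSO and 13 and 4 under GSK3484862. With GDM1 and SKNO1 as the only other lines the outside counts were 2865 and 2610 in DMSO and 3009 and 2414 under GSK3484862, the interaction 511 and 326, and the line means called 0 in either direction. With the 4 KMT2A-rearranged lines the outside counts were 1398 and 1322, and 1584 and 1354, and line means called 47 higher. Quantile normalization gave 1255 lower outside in DMSO, 1500 under GSK3484862 and 865 lower interactions, and median centring 1132 lower outside under GSK3484862. The filter left 497 higher outside in DMSO and 529 under GSK3484862, and 0 higher and 4 lower by line means. Line means gave 8 higher with trend and robust eBayes, 5 lower with the mean of all probe sets, 42 higher without GDM1, 37 without NOMO1, 79 without THP1, and 12 higher and 4 lower without MOLM13. Without probe sets prone to cross-hybridise 372 interactions were lower. At an adjusted p of 0.01 the interaction called 423 and 243, and line means 9 and 3. At a difference of at least 1 the counts were 1508 and 1015 called in DMSO, 1669 and 916 under GSK3484862, 306 and 152 interactions, and 477 and 344 outside in DMSO and 530 and 310 under GSK3484862. At a gap of at least 1 they were 116 and 60, and 113 and 51. Without chromosomes 12 and 14, an alternative chosen after seeing the data, 458 lower genes were outside in DMSO and 470 under GSK3484862.

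Leaving out 1 replicate at a time, the outside counts in DMSO ran from 808 to 1210 higher and from 783 to 1138 lower, and under GSK3484862 from 872 to 1176 and from 750 to 999. Called genes ran from 3547 to 4096 and from 3062 to 3716 in DMSO, from 3854 to 4330 and from 3130 to 3625 under GSK3484862, interactions from 596 to 935 and from 417 to 539, and line means from 23 to 28 and from 7 to 9. With the replicate block, 4013 higher and 3620 lower genes were called and 796 and 775 lay outside, so the block changed no count by over 1.5 times, and the replicate numbers showed no pairing.

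DNMT1 turned to 0.14 against GDM1 and SKNO1 and to 0.05 without SHI1. DNMT3B turned to -0.83 against GDM1 and SKNO1, -0.13 without SKNO1 and -0.02 without THP1. UHRF1, at 0.01, turned to -0.16 against the KMT2A-rearranged lines, -0.02 with median centring, -0.18 without SKNO1, -0.00148 without NOMO1, and to -0.00203, -0.00191, -0.00711 and -0.05 without GDM1 replicate 2, NOMO1 replicate 1, SHI1 replicate 2 and SKM1 replicate 1; its highest value without 1 replicate was 0.07. EZH2 was not called without SKM1 replicate 1 (-0.17, adjusted p = 0.0846), MOLM13 (-0.18, 0.0607) or THP1 (-0.11, 0.247) by limma. The causes were not tested.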

Other observations

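Probe sets with no gene symbol, or with several, were left out of the results above. Of 4726 such probe sets, both SKM1 DMSO arrays lay above all other DMSO arrays in 191 and below them in 258, and 272 of these were also outside on the same side in the GSK3484862 arrays. A further 9 genes lay outside the range of the other lines without a limma call.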
